A study of Macaca mulatta with 6 samples.

Results

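The genes described here are 10 components of the route that runs from Toll-like receptor 4 (TLR4), the interleukin-1 receptor and the tumor necrosis factor receptor to the transcription factor NF-kappaB. They were TLR4, LY96, MYD88, IRAK1, TRAF6, IL1B, IL1R1, TNFRSF1A, NFKB1 and RELA, taken by name because this innate immune pathway has been proposed as a route by which morphine acts outside opioid receptors. Of these 10, 9 had a row among the 23191 genes of the deposited table, matched by rhesus Ensembl identifier. There were 8 with a mean of at least 10 normalized counts, the level set for testing, out of 16595 such genes. LY96 lay below that level and is given by its reads. IL1B, the gene of interleukin-1 beta, was not analysed here.

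TLR4 is a membrane receptor that binds bacterial lipopolysaccharide together with its secreted partner MD-2, the product of LY96. TLR4 and the interleukin-1 receptor recruit the adaptor MYD88, which assembles kinases of the IRAK family and the ubiquitin ligase TRAF6, while the tumor necrosis factor receptor uses RIPK1 and further ubiquitin ligases. Both arms activate the IKK kinase, which destroys inhibitors of the IkappaB family and frees NF-kappaB dimers such as p50 with RelA to enter the nucleus. In the brain, TLR4 is best known from microglia, and the receptors of interleukin-1 and tumor necrosis factor also act on endothelial cells.

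Polyadenylated RNA was sequenced from cells labelled as adult cortical neurons of male rhesus monkeys (Macaca mulatta) aged 3 to 4 years. The morphine group received morphine under the skin 3 times daily for 90 days, with the dose raised from 3 through 6, 9 and 12 to 15 mg/kg, the last from day 29, and the saline group received saline on the same schedule. Each group had 3 libraries. The protocol names 4 monkeys, 2 per group, and the sample descriptions carry 1 animal-like code per group, so some libraries of a group, and possibly all 3, came from the same animal. P-values over libraries therefore measure only the spread between these libraries and are too small as tests over animals, and morphine and differences between animals cannot be told apart. Libraries held 31238653 to 36345095 reads recovered from the normalized counts.

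Transcripts of several cell types were present besides those of neurons, so each value below is a sum over cell types, and in such bulk samples fewer cells of a type and less RNA per cell cannot be told apart. All 12 neuronal markers were above the level for testing, but so were 8 of 8 astrocyte, 8 of 8 oligodendrocyte, 11 of 11 microglial and 8 of 8 endothelial markers that had a row. MBP, a myelin protein of oligodendrocytes, lay between 189610 and 203413 normalized counts. Marker levels moved with the group in several of these lists, and those values are given beside the results they accompany.

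Among the 8 measured members, the receptor genes TNFRSF1A and IL1R1 rose with morphine, none fell, and 6 did not pass the test. These 6 included TLR4 itself, the adaptors and kinase downstream of it, and both NF-kappaB subunits. The test was limma on log2(normalized count + 1), and a change was called at a Benjamini-Hochberg adjusted p under 0.05 over all tested genes. By that rule 27.9% of all tested genes were called, 12.9% as higher and 15% as lower with morphine, so 2 calls among 8 members (25%) are close to the background share. The median log2 fold change of the 8 members was -0.01, beside 0.01 over all tested genes. With edgeR on the recovered reads 2 members rose and 0 fell, where 34% of genes were called (16.3% higher and 17.7% lower). With DESeq2 1 rose and 0 fell, where 36.8% were called (18% higher and 18.9% lower), and 1 had an adjusted p under 0.05 in the authors' deposited table, beside 34.1% of genes. At an unadjusted p under 0.05 in limma, 2 members were higher and 0 lower, beside 20.4% and 21.4% of genes.

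**Figure D1:**
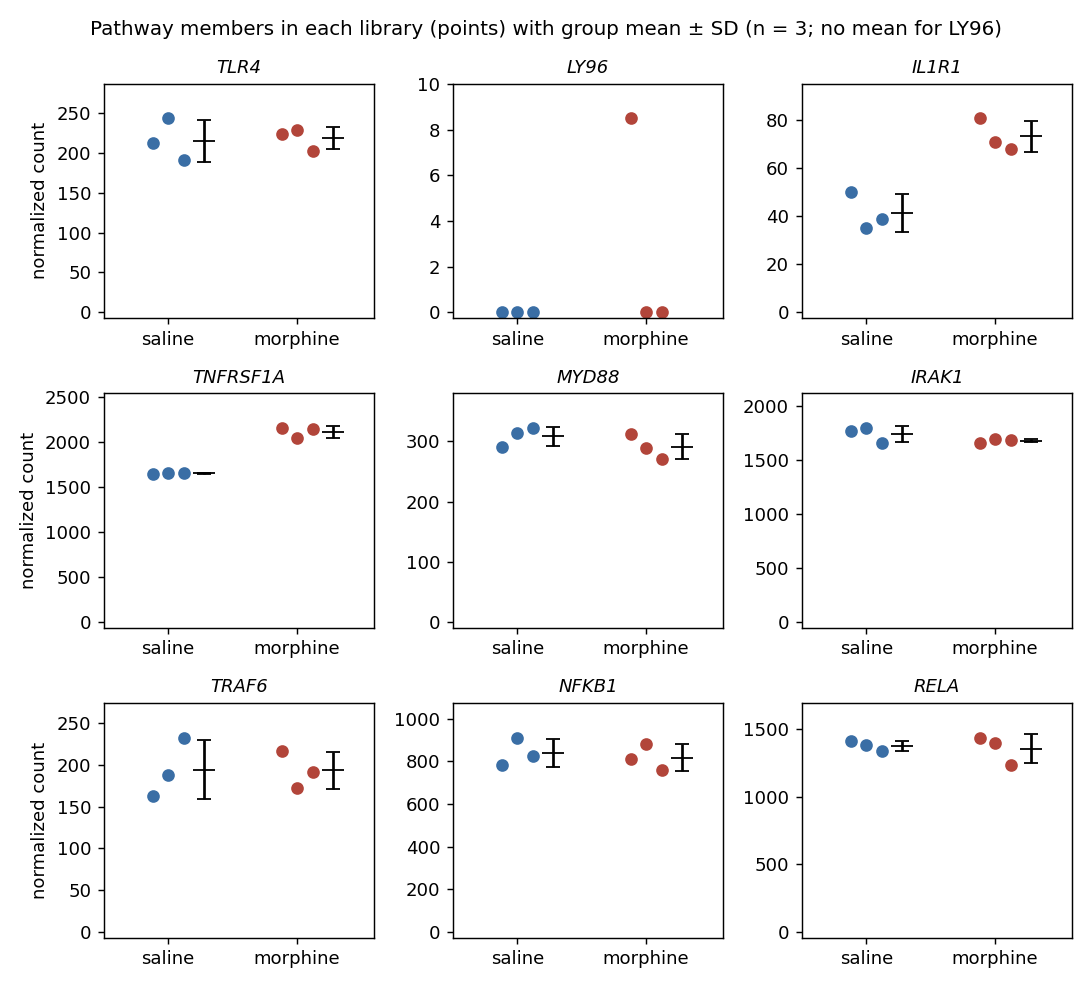
Normalized counts (vertical axis, linear, from 0) of the 9 genes with a row in each saline (blue) and morphine (red) library, with the group mean and SD in black for all but LY96. The groups separate for TNFRSF1A and IL1R1 and overlap for the other 7 genes, and LY96 has reads in 1 library only.

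Of the receptors, TLR4 (ENSMMUG00000009112) was found in every library at a similar level in both groups. It had 224, 229 and 203 normalized counts in the morphine libraries and 212, 244 and 191 in the saline libraries, both in order of replicate number, as for all genes below. The highest and the lowest of the 6 values were both saline libraries, and the groups overlapped. The log2 fold change of TLR4 was 0.03 ± 0.109 (SE, n = 3 libraries per group; limma adjusted p = 0.881). Its 95% interval ran from a ratio of 0.841 to one of 1.23, so changes within these bounds in either direction are not excluded by these libraries.

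LY96 (ENSMMUG00000003018), which encodes the MD-2 partner that TLR4 needs to bind lipopolysaccharide, had 8 reads in morphine library 1 and 0 reads in each of the other 5 libraries. Where no read was counted, up to 3 could still be expected by counting error alone. No fold change is given for it. CD14, which hands lipopolysaccharide to the TLR4 and MD-2 complex, was measured at 314 ± 44.1 normalized counts with morphine and 236 ± 55.6 with saline (n = 3 each), and it did not pass the test (limma adjusted p = 0.192). TLR4 and CD14 had reads in all 6 libraries, and LY96 in 1, but levels are not compared between genes. The build listed by the submitters is hg19 while the identifiers are rhesus. The part of read mapping or gene annotation in the few reads of LY96 was not tested.

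IL1R1 (ENSMMUG00000020737), the signalling receptor of interleukin-1, showed the larger of the 2 rises. Its morphine libraries held 80.8, 70.8 and 68.2 normalized counts and its saline libraries 50.3, 35.1 and 39.0. Every morphine library lay above every saline library. Groups that did not overlap, in either direction, were found for 2 of the 8 members and for 48.7% of all tested genes. IL1R1 rose by 0.82 ± 0.152 (SE) on the log2 scale, a ratio of 1.76 with a 95% interval from 1.35 to 2.30 (n = 3 libraries per group; limma adjusted p = 0.0177). It was the member with the fewest reads among those tested, 35 to 78 per library. Its call was lost in some of the limma fits without 1 library. Losing a call was common in such fits, where calls over all tested genes fell from 4631 to between 2536 and 3181. The same background holds for the fits without 1 library given for other genes. IL1R1 did not pass in limma without morphine library 1 (adjusted p = 0.0575), without morphine library 2 (adjusted p = 0.0552) or without saline library 3 (adjusted p = 0.0555). It did not pass in DESeq2 (adjusted p = 0.066), and in the authors' deposited table its adjusted p was 0.107. Its log2 fold change stayed between 0.71 and 0.96 in the 17 alternatives run. The accessory receptor IL1RAP, without which IL1R1 does not signal, did not pass (224 ± 9.62 against 214 ± 54.5 normalized counts, n = 3 each; limma adjusted p = 0.745).

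TNFRSF1A (ENSMMUG00000000377), the main signalling receptor of tumor necrosis factor, rose less, with groups far apart for their spread. It had 2149, 2037 and 2139 normalized counts in the morphine libraries and 1639.9, 1649 and 1656 in the saline libraries. The SD was 2.93% of the mean in morphine and 0.48% in saline libraries, where counting error alone gives about 2.3% at this depth. TNFRSF1A rose by 0.35 ± 0.0486 (SE) on the log2 scale, a ratio of 1.28 with a 95% interval from 1.17 to 1.39 (n = 3 libraries per group; limma adjusted p = 0.00807). It passed without any 1 of the 6 libraries, in edgeR (adjusted p = 0.00117) and in DESeq2 (adjusted p = 1.51e-06). The rise was of moderate size for these libraries, since 62.5% of all tested genes had a smaller absolute change, against 88.8% for IL1R1.

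Microglial markers moved in the same libraries. Of 11 measured, 4 rose and 2 fell, beside 12.9% and 15% of all tested genes. The summed level of the 11 was 9564 to 10191 normalized counts in morphine and 7291 to 7571 in saline libraries. The markers that rose were TREM2, CSF1R, C1QC and ITGAM, by 1.69, 0.87, 1.01 and 1.16, and P2RY12 and PTPRC fell by 0.47 and 0.51. ITGAM and PTPRC, like MBP, were chosen after their values were seen. PTPRC passed in only 2 of the 6 limma fits without 1 library (not without morphine library 2 or saline library 1, 2 or 3). Among mural cell and fibroblast markers 6 of 10 rose and 1 fell, beside the same 12.9% and 15%. Their summed level was 10978 to 11268 in morphine and 8810 to 9419 in saline libraries. COL1A1, COL1A2, ACTA2 and the pericyte gene RGS5 had the smallest adjusted p in that list, and the first 3 rose by 3.54, 2.34 and 0.78 while RGS5 fell by 0.68. The part of these cell types in the rises of TNFRSF1A and IL1R1, and in the level of TLR4, which did not pass, was not tested.

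The 3 members that act between the receptors and NF-kappaB, MYD88, IRAK1 and TRAF6, did not pass. MYD88 (ENSMMUG00000000995), the adaptor shared by TLR4 and the interleukin-1 receptor, had 312, 289.6 and 271 normalized counts in morphine and 291, 314 and 322 in saline libraries. Its groups overlapped, with a log2 fold change of -0.09 ± 0.0772 (SE, n = 3 libraries per group; limma adjusted p = 0.440). IRAK1 (ENSMMUG00000018703), a kinase recruited by MYD88, had 1664, 1696 and 1691 normalized counts in morphine and 1771, 1797 and 1663 in saline libraries, so that saline library 3 was the lowest of all and saline libraries 1 and 2 the highest. The interval of its ratio, 0.880 to 1.06, was the narrowest of the 6 members that did not pass.

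TRAF6 (ENSMMUG00000018266), the ubiquitin ligase that passes the signal on to the kinase TAK1, varied most among the members that did not pass. Morphine libraries held 217, 172 and 191 normalized counts and saline libraries 163, 188 and 232, so the saline group contained both the lowest and the highest value. The SD was 11.5% of the mean in morphine and 18.0% in saline libraries, above the 7.17% that counting error gives. The group means were 193 ± 22.2 and 194 ± 35.0 (n = 3 each), and the ratio had a wide 95% interval, 0.758 to 1.32.

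The 2 NF-kappaB subunit genes were at similar levels in both groups. NFKB1 (ENSMMUG00000003736), which encodes the p105 precursor of p50, had 809, 882 and 758 normalized counts in morphine and 781, 908 and 827 in saline libraries. RELA (ENSMMUG00000007418), the subunit with the main activation domain, had 1433, 1397 and 1236 in morphine and 1408, 1382 and 1337 in saline libraries. Library 2 was the highest of each group for NFKB1, and morphine library 3 was the lowest of all 6 for both genes. The log2 fold changes were -0.04 ± 0.0892 for NFKB1 and -0.02 ± 0.0745 for RELA (SE, n = 3 libraries per group; limma adjusted p = 0.771 and 0.830). The 95% intervals of the ratios were 0.832 to 1.14 and 0.863 to 1.12. The other Rel genes, NFKB2, REL and RELB, gave 0 rises and 0 falls in limma, in edgeR and in DESeq2, and 0 at an unadjusted p under 0.05 in limma. RELB, chosen after its values were seen, had the lowest adjusted p of these 3 (248 to 258 normalized counts in morphine and 259 to 316 in saline libraries; limma adjusted p = 0.142).

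**Figure D2:**
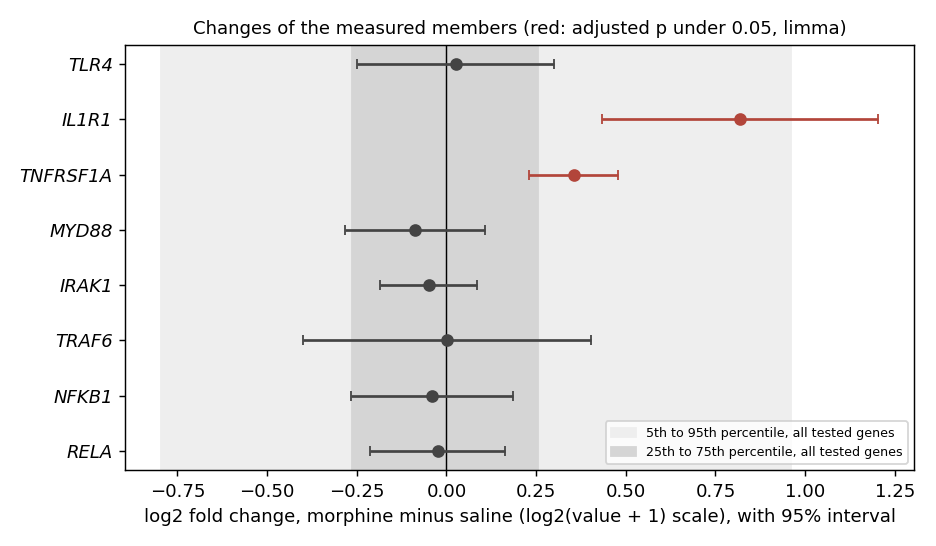
Log2 fold change (horizontal axis, morphine minus saline, on the log2(value + 1) scale) of the 8 measured members with 95% intervals from limma, in red where the adjusted p was under 0.05. The bands hold the middle of all 16595 tested genes (-0.26 to 0.26 between the 25th and 75th percentiles), within which the 6 members that did not pass all have their estimate.

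The genes around the members were described by 7 further lists of the pathway, holding 102 genes, of which 68 could be tested. In these lists 9 genes rose and 11 fell, which is 29.4% of the 68, beside the 27.9% of all tested genes. The median log2 fold change was -0.01. The share called was thus near the background for the pathway as a whole, and the lists differed from each other in how many of their genes passed.

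The branch below the tumor necrosis factor receptor had 5 rises and 1 fall among 10 measured genes, beside 12.9% and 15% of all tested genes. RIPK1, the kinase that docks at the receptor encoded by TNFRSF1A, had 1893, 1818 and 1994 normalized counts in morphine and 1122, 1109 and 943 in saline libraries. It rose by 0.85 ± 0.0893 (SE) on the log2 scale (n = 3 libraries per group; limma adjusted p = 0.00452). BIRC2, a ubiquitin ligase (cIAP1) that modifies RIPK1, had 984, 994 and 1067 in morphine and 1668, 1700 and 1771 in saline libraries, and fell by 0.75 ± 0.0585. The groups did not overlap for either gene, as for 48.7% of all tested genes, and both passed without any 1 library.

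RNF31, the catalytic subunit of the linear ubiquitin ligase complex LUBAC, rose by 0.52 ± 0.0772 and its partner SHARPIN by 0.38 ± 0.0831. The third subunit, RBCK1, had no overlap between the groups, as for 48.7% of all tested genes. It did not pass in limma (log2 fold change 0.23 ± 0.0906, adjusted p = 0.121). RBCK1 passed in DESeq2 (adjusted p = 0.00746). TNFRSF1B, the second receptor of tumor necrosis factor, rose by 0.36 and the adaptor TRAF5 by 0.26. RBCK1, TNFRSF1B and TRAF5 were chosen after their values were seen. SHARPIN and TNFRSF1B passed in 1 each of the 6 limma fits without 1 library (SHARPIN without saline library 3, TNFRSF1B without saline library 2) and TRAF5 in 0, with adjusted p up to 0.0824, 0.0973 and 0.128, and 2 or 3 genes of the branch rose and 1 or 2 fell in those fits. With all 6 libraries SHARPIN, TNFRSF1B and TRAF5 passed in edgeR and in DESeq2. TNF itself was near the limit of detection, with 0, 3 and 0 reads in morphine and 0, 14 and 42 in saline libraries, and did not pass (limma adjusted p = 0.275).

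Among 16 other adaptors, kinases and ubiquitin enzymes, 0 rose and 4 fell, beside 12.9% and 15% of all tested genes. TAB2 and TAB3, which bind ubiquitin chains made by TRAF6 and bring in the kinase TAK1, fell by 0.35 ± 0.0489 and 0.60 ± 0.0683 on the log2 scale (limma adjusted p = 0.00861 and 0.00543). TAB3 had 993 to 1076 normalized counts in morphine and 1448 to 1604 in saline libraries, and TAB2 had 3227 to 3424 and 4231 to 4252. Both passed without any 1 library. TOLLIP, a brake on interleukin-1 receptor signalling, and the kinase TBK1 fell by 0.23 and 0.28, but neither passed in any of the 6 limma fits without 1 library (adjusted p between 0.0648 and 0.0962 for TOLLIP and between 0.0516 and 0.116 for TBK1). In those fits 2 of the 16 fell each time. With all 6 libraries TOLLIP and TBK1 passed in edgeR (adjusted p = 0.00186 and 0.0199) and in DESeq2 (adjusted p = 1.91e-07 and 0.00615). TICAM1, the adaptor of the second TLR4 pathway, and the kinase IRAK4 did not pass (limma adjusted p = 0.758 and 0.0656). Without saline library 1, 2 genes of the list rose, against 0 in the other 5 fits. With edgeR 0 rose and with DESeq2 1 rose, and at an unadjusted p under 0.05 in limma 1 of the 16, IRAK4, was higher.

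Of 14 genes of the IKK complex and its inhibitors, 3 rose and 1 fell, beside 12.9% and 15% of all tested genes. NFKBIA, the IkappaB alpha inhibitor that is itself an NF-kappaB target, had 1968, 2024 and 2112 normalized counts in morphine and 1335, 1417 and 1375 in saline libraries and rose by 0.56 ± 0.055 (limma adjusted p = 0.00404). NFKBID, a nuclear relative of IkappaB, rose by 0.96, PDLIM2 by 0.25, and CYLD, an enzyme that removes ubiquitin chains, fell by 0.38. NFKBID passed in 2 of the 6 limma fits without 1 library (not without morphine library 3 or saline library 1, 2 or 3), PDLIM2 and CYLD in 0 (adjusted p between 0.0547 and 0.0818 for PDLIM2 and between 0.0552 and 0.119 for CYLD), and NFKBIA in all 6. In those fits 1 or 2 genes of the list rose and 0 or 1 fell, and 3 fell in edgeR and in DESeq2. With all 6 libraries NFKBID, PDLIM2 and CYLD passed in edgeR and in DESeq2. TNFAIP3, the A20 enzyme that shuts the pathway off, moved the other way from NFKBIA, with 64.5 to 109 normalized counts in morphine and 128 to 168 in saline libraries. It did not pass in limma (adjusted p = 0.0646), while it passed in edgeR (adjusted p = 0.0488) and DESeq2 (adjusted p = 0.0351). The kinase subunits CHUK, IKBKB and IKBKG did not pass (limma adjusted p = 0.139, 0.352 and 0.971).

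Toll-like receptors and co-receptors other than TLR4 gave 0 rises and 1 fall among 11 measured, beside 12.9% and 15% of all tested genes. TLR2, the receptor of bacterial lipoproteins, had 25.5, 39.9 and 30.7 normalized counts in morphine and 58.2, 52.1 and 67.5 in saline libraries. It fell by 0.88 ± 0.189 (limma adjusted p = 0.0252), and did not pass in edgeR (adjusted p = 0.0582), in DESeq2 (adjusted p = 0.0839) or in 5 of the 6 limma fits without 1 library, all but the one without morphine library 2. At an unadjusted p under 0.05 in limma 0 of the 11 were higher, and edgeR and DESeq2 gave 0 rises. TLR3, a sensor of double-stranded RNA, did not pass (limma adjusted p = 0.659). Of 7 other genes of the interleukin-1 family, IL18BP, a secreted inhibitor of interleukin-18, rose by 0.43 ± 0.0763 (limma adjusted p = 0.0151, and adjusted p = 0.0501 without saline library 2). In limma fits without 1 library 0 to 2 genes of this list rose (2 without morphine library 3), and 0 fell in limma, edgeR and DESeq2 or at an unadjusted p under 0.05. At that unadjusted level in limma 3 of the 7 were higher, beside 20.4% of all tested genes. IL1RN, the natural antagonist of IL1R1, was low, with 0 to 9.56 normalized counts in morphine and 11.6 to 16.0 in saline libraries. IL1A, TIRAP and CXCL8 were not analysed here.

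**Figure D3:**
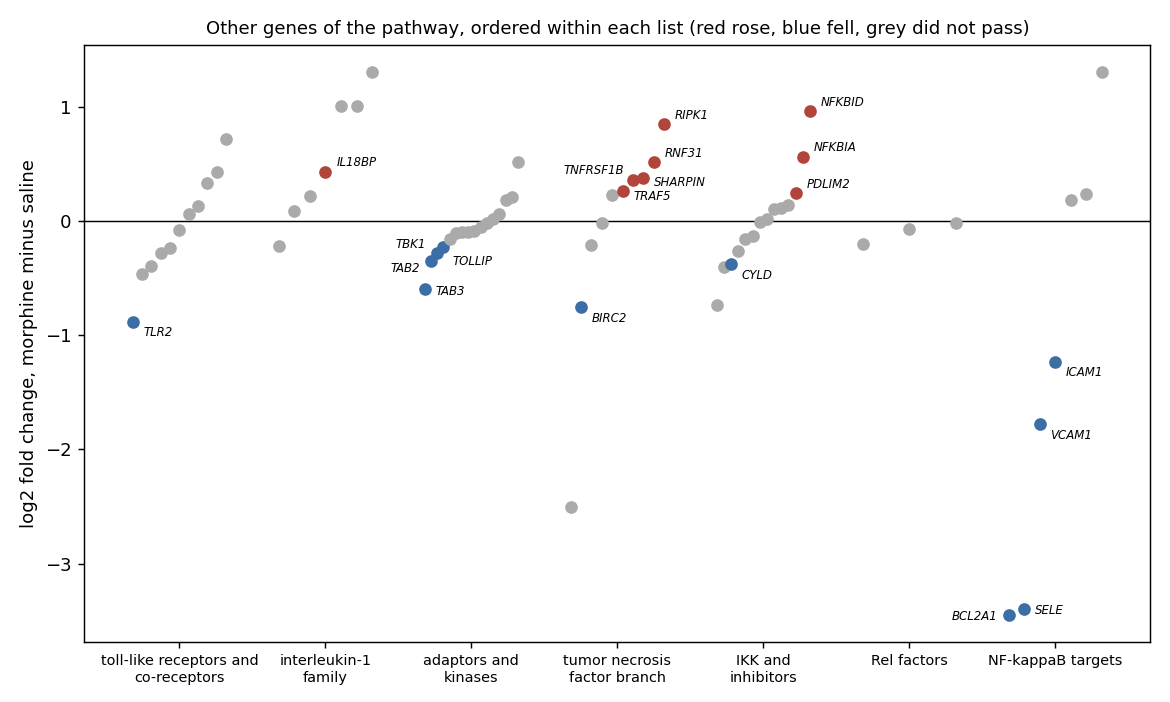
Log2 fold change (vertical axis, morphine minus saline) of the 68 measured genes in the 7 pathway lists, 1 point per gene, ordered by value within a list, in red for genes that rose, blue for those that fell and grey for those that did not pass. The lowest points, SELE, BCL2A1 and the grey point of TNF at -2.50, are genes with few reads.

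Of 20 textbook NF-kappaB target genes 7 could be tested, and 4 of them fell and 0 rose, beside 15% and 12.9% of all tested genes. NFKBIA and TNFAIP3, also targets but counted above with the inhibitors, went in opposite directions. NFKBIA rose by 0.56, while TNFAIP3 had a log2 fold change of -0.73 and did not pass in limma (adjusted p = 0.0646). VCAM1 and ICAM1, adhesion molecules that hold leukocytes on vessel walls, had 67.0, 72.6 and 95.1 and 103, 115 and 76.9 normalized counts in morphine libraries, against 270.4, 235 and 303 and 255, 163 and 290.0 in saline libraries. VCAM1 fell by 1.78 ± 0.167 and ICAM1 by 1.23 ± 0.268 on the log2 scale (n = 3 libraries per group; limma adjusted p = 0.00367 and 0.0263). SELE, the E-selectin of activated endothelium, had 5, 0 and 5 reads in morphine and 36, 30 and 35 in saline libraries. BCL2A1, a survival gene of the BCL2 family, had 3, 0 and 4 reads against 23, 30 and 33. All 4 genes were lower in every morphine library than in any saline library. Groups did not overlap, in either direction, for 48.7% of all tested genes. SELE and BCL2A1 passed in limma (adjusted p = 0.0284 and 0.0185).

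VCAM1 passed without any 1 library, while BCL2A1 passed in 4 of these 6 limma fits (not without saline library 2 or 3), SELE in 2 (only without morphine library 1 or 2) and ICAM1 in 1 (without saline library 2). The number of targets that fell was between 1, without saline library 3, and 3 in those fits, and it was 4 in edgeR and in DESeq2. SELE and BCL2A1 passed the filter only through their saline values, so no count over the 4 is read as support. CCL2, a chemokine, was higher with morphine (13.8, 23.6 and 19.2 against 11.8, 5.01 and 5.27 normalized counts) and just missed the threshold in limma (adjusted p = 0.0505), as the 1 target that was higher at an unadjusted p under 0.05, while edgeR and DESeq2 gave 0 rises. CCL2 passed as a rise in limma without saline library 1 (adjusted p = 0.0237) and with a pseudocount of 5. Its saline mean of 7.38 normalized counts lay below the level for testing. CCL2 thus passed the filter only through its morphine values, and its rise is not read as support either. IL6 was low in both groups, with 0 to 7 reads in morphine and 0 to 4 in saline libraries. CXCL10, chosen after its values were seen, had 0 reads in each morphine library and 3, 12 and 11 in saline libraries. CXCL1, also chosen after its values were seen, went the other way, with 3, 4 and 2 reads in morphine libraries and 0 in each saline library.

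Endothelial markers fell in the same libraries as VCAM1, ICAM1 and SELE. Of 8 measured, 4 fell and 0 rose, beside 15% and 12.9% of all tested genes. FLT1 fell by 0.61, PECAM1 by 0.52, TEK by 0.75 and EMCN by 0.31 on the log2 scale. At an unadjusted p under 0.05 in limma 0 of the 8 were higher, and edgeR and DESeq2 gave 0 rises, but SLC2A1 passed as a rise in limma without morphine library 3 (adjusted p = 0.0170). VWF, ESAM and SLC2A1 were chosen after their values were seen, and VWF and ESAM did not pass (limma adjusted p = 0.635 and 0.667). The summed level of the 8 was 12099 to 17950 normalized counts in morphine and 14471 to 15088 in saline libraries, and its spread came with SLC2A1, which had 10010.1, 10307 and 4424 in morphine libraries. EMCN passed in 1 of the 6 limma fits without 1 library (without saline library 2), and FLT1, PECAM1 and TEK passed in all 6. The falls of VCAM1, ICAM1 and SELE were each larger than that of any endothelial marker measured. These are comparisons of sizes with no test, and SELE rests on few reads. The part of endothelial cells in the falls of VCAM1, ICAM1 and SELE was not tested.

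**Figure D4:**
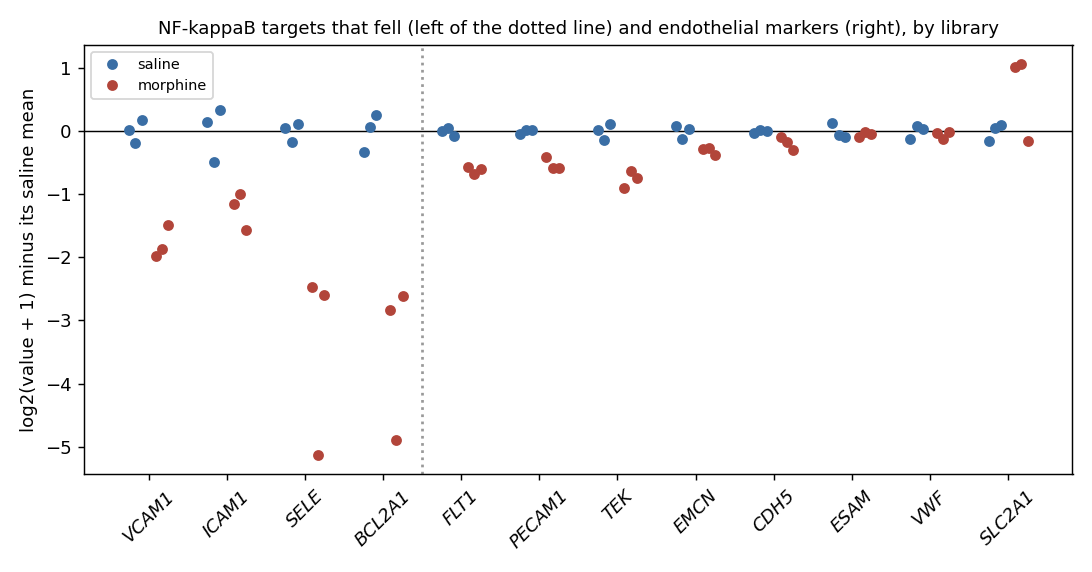
Log2(value + 1) of each library relative to the saline mean of the gene (vertical axis) for the 4 NF-kappaB targets that fell, left of the dotted line, and the 8 endothelial markers, right of it, with saline in blue and morphine in red. VCAM1, ICAM1, SELE and BCL2A1 lie lower in all 3 morphine libraries, and SLC2A1 is split among them.

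Markers of the remaining cell types moved as follows, beside 12.9% of all tested genes called higher and 15% called lower. Of 8 astrocyte markers 6 fell and 1 rose (GJA1, SLC1A3, SLC1A2 and AQP4 fell by 0.94, 0.58, 0.68 and 0.48, and GFAP, chosen after its value was seen, rose by 0.41). Of 12 neuronal markers 6 fell and 1 rose, and NEFL, NEFM, SNAP25 and MAP2 fell by 0.73, 0.57, 0.54 and 0.37. RBFOX3, chosen after its value was seen, rose by 0.22. The summed level was 236187 to 238626 normalized counts in morphine and 293407 to 298844 in saline libraries for astrocyte markers, and 325997 to 326291 and 386975 to 395722 for neuronal markers. Oligodendrocyte markers gave 3 rises and 3 falls among 8, their precursors 2 rises among 6, and blood myeloid markers 1 rise among 5, that of CD163 (by 0.65). MAL and MOG rose by 0.61 and 0.22, UGT8 fell by 0.50, and the precursor genes OLIG2 and CSPG4 rose by 0.52 and 0.32. MOG and CSPG4 passed in 0 of the 6 limma fits without 1 library, and UGT8 in 3 (not without morphine library 1 or 2 or saline library 1). In the 6 limma fits without 1 library, 1 or 2 oligodendrocyte markers rose and 0 to 2 fell, 1 or 2 precursor markers rose, 0 neuronal markers rose and 5 or 6 fell, and CD163 passed in 1, without saline library 3. The part of these differences in the values of the members was not tested.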

How the data were processed

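Values came from a table deposited by the authors that holds, for each gene, a normalized count in each library (a signal that is the read number over that library's size factor, per the file headers and as the values show). Its other columns are the authors' log2 fold changes with standard errors, the statistic of their test (a score), and p-values. A second deposited table holds 2332 of the same rows and was not used. Tools listed in the submitters' processing notes, without roles, are DESeq2 1.18.1, StringTie and Bowtie2 2.1.0, and the build listed is hg19, while the identifiers are rhesus, so no coordinates are printed. Whether strand was used is not given there. In every library 100% of values were whole multiples of 1 read within 0.001, so reads were recovered. Symbols came from a gene name table, which matched 15436 of 23191 identifiers.

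The main test was limma 3.58.1 (R 4.3.3) on log2(value + 1), group as the only term, two-sided, for genes with a mean of at least 10, with Benjamini-Hochberg adjustment over 16595 genes. Fold changes on this scale understate changes of low genes. Because values are not per length, levels are not compared between genes. edgeR 4.0.16 and DESeq2 1.42.0 on the recovered reads, other scalings, filters and pseudocounts, an intensity trend, a replicate block and each library left out were alternatives. On the recovered reads of the tested genes DESeq2 called 6105 genes and edgeR 5636. Scripts were checked on simulated data. Libraries within a group correlated at 0.972 to 0.978 across genes (not independent replicates) and differed by more than sampling noise. The mean chi-square of pairs was 17.5 to 23.8, where noise gives a mean of about 1. The median over genes was lower, 2.60 to 3.19.

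Members and lists were chosen with earlier results of these data known. Named genes were all members, in each list up to 4 called genes, by adjusted p, and a set of central pathway genes whatever their result. A gene that the rule takes is not reported here. Other genes named are said to be chosen after their values were seen. Floors and counting errors cover counting error only.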

Additional observations from a re-analysis of the deposited data

How the results depend on the processing

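The 2 rises and 0 falls among members were also found with TMM or upper-quartile scaling, without a filter, with a minimum mean of 50, with pseudocounts of 0.5 or 5, with an intensity trend and in edgeR. The number of members that rose was 1 in DESeq2 and 1 in the authors' deposited table, where IL1R1 did not pass, and between 1 and 2 without 1 library. The number of genes called, 4631, became 2993 without a filter and between 2536 and 3181 without 1 library. Replicate numbers do not name a shared animal, and same-numbered libraries did not deviate together (correlations of -0.06, 0.00 and -0.03). With the replicate number as a block, 1577 genes and 1 member, IL1R1, passed, and TNFRSF1A had an adjusted p of 0.0561 in limma. TLR4, TRAF6, NFKB1 and RELA, none of which passed under any of the 17 alternatives, changed sign in 2, 7, 2 and 1 of them. IRAK1 and MYD88 kept a negative sign in all 17. The median over all tested genes moved from 0.01 to 0.00 with TMM and 0.03 with upper-quartile scaling. Among the measured members counting error was largest for IL1R1, TRAF6 and TLR4 (13.1%, 7.17% and 6.76% of the mean). The SD lay above it in both groups for TRAF6, and in saline libraries only for IL1R1 and TLR4. LY96, TNF, IL6, SELE and BCL2A1 rest on few reads.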
